A study of Anas platyrhynchos with 16 samples.

Results

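Gene expression in the pituitary was compared with that in the hypothalamus of caged Shanma ducks (Anas platyrhynchos), over 4 pituitary and 4 hypothalamus libraries, 8 of the 16 RNA sequencing libraries of the series. The libraries were chosen by their labels alone, as every caged library of either tissue. The ducks were 113 days old. At 110 days of age, 15 birds had been moved into 3 cages of 100 × 45 × 50 cm, so that they had spent 3 days there under 16 h of light. The other 8 libraries, again 4 of each tissue, came from ducks of the same strain and age kept on floor and water under natural light, and housing therefore differs together with lighting. No label names a genetic modification or an agent given to the birds. No label says that a library is a single bird or which cage it came from, so the p-values speak for variation among these libraries alone, part of which may be technical.

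The hypothalamus is the brain region that governs the anterior pituitary. Its neurons release small peptides and dopamine into portal vessels, and these act on receptors of the pituitary cells that make growth hormone, prolactin, the glycoprotein hormones and corticotropin. In birds, vasoactive intestinal peptide drives prolactin release and the hypothalamus also holds light-sensing pathways that govern reproduction. The pituitary secretory cells are epithelial, and their types are set by transcription factors such as POU1F1 and NR5A1. The anterior gland holds few neurons and no myelin-forming oligodendrocytes.

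Total counts were 39213327 to 58219259 per hypothalamus library and 48433586 to 67175356 per pituitary library. The secretory output dominated the pituitary libraries: 5 genes (GH1, CHGA, PRL, POMC and CGA) held 24.0% to 30.9% of all counts in each pituitary library. Levels below are CPM, counts scaled to a common library size after TMM adjustment, listed for libraries 1 to 4 in order. Levels of different genes are compared in FPKM, which is scaled by transcript length, apart from ratios to GH1 within a library, which are compared between tissues. Fold changes are pituitary minus hypothalamus on the log2 scale with their standard error, and adjusted p-values come from edgeR's quasi-likelihood test with Benjamini-Hochberg adjustment over all genes tested, n = 4 per tissue. A gene is said to be called, or to be higher or lower, where that adjusted p was under 0.05. In bulk tissue, a difference in the number of cells of a type and a difference in RNA per cell cannot be told apart.

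Across the transcriptome the tissues differed at 8571 of 15854 genes tested (54.1%), of which 4323 (27.3%) were higher and 4248 (26.8%) lower in pituitary. A log2 fold change of at least 1 in size was met by 2593 genes called higher (16.4%) and 3155 called lower (19.9%). The balance of directions moved with the scaling. The TMM factors were 1.11 to 1.17 in hypothalamus libraries and 0.849 to 0.923 in pituitary libraries. Higher genes made up 50.4% of the calls with TMM, 32.8% with plain library totals and 34.3% with limma on log2(FPKM + 1), and these alternatives moved the median fold change of all genes by -0.35 and -0.33. The libraries of the tissues did not overlap in CPM for 8482 genes (53.5%), and DESeq2 called 9441 of 18432 genes (51.2%). Single libraries decided part of the calls: 6752 (78.8%) remained whichever library was left out. Counts of list members given below stand beside these shares of 27.3% and 26.8%.

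Some caged libraries carried transcripts of the other tissue. In floor-water libraries, which take no part in the caged contrast, 33 genes had a mean of at least 20 FPKM in pituitary and at least 50 times the hypothalamus mean, and 23 genes met the mirrored rule. In caged hypothalamus libraries 1 to 4, the pituitary-restricted genes stood at a median of 3.36%, 0.402%, 6.23% and 20% of their caged pituitary mean. Library 4 was the highest of the 4 for 33 of these 33 genes, and library 2 was close to free of them. The hypothalamus-restricted genes stood at a median of 0.0914%, 4.18% and 0.104% of their hypothalamus mean in caged pituitary libraries 1 to 3, and library 2 was the highest for 23 of 23. In library 4, 12 of the 23 had 0 counts, so that its median is the authors' placeholder for 0 and no measured share. Hypothalamus libraries 1, 3 and 4 thus held pituitary transcripts at different levels, and pituitary library 2 held hypothalamus transcripts. The shares are of the deposited FPKM, without TMM adjustment, and their sizes depend on that scaling. For GH1 in hypothalamus library 4 the share was 18.1%, while its CPM was 14112 beside a pituitary mean of 98366.

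**Figure D1:**
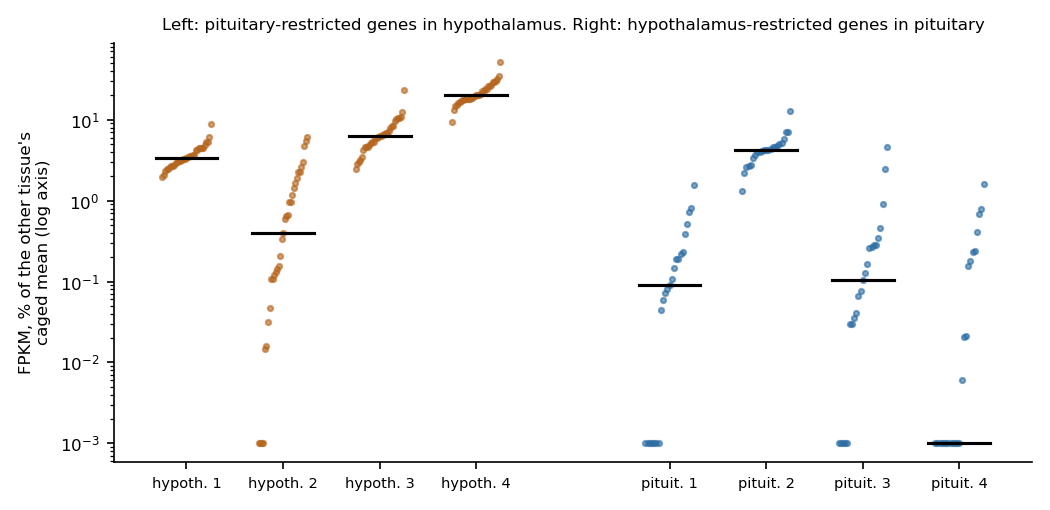
Each point is a gene restricted to the other tissue in floor-water ducks, and its height is its FPKM in a caged library as a percentage of its mean in the caged libraries of the tissue it is restricted to (log axis, values under 0.001% drawn at 0.001%). Black bars are medians over 33 pituitary-restricted genes in hypothalamus libraries 1 to 4 (left) and over 23 hypothalamus-restricted genes in pituitary libraries 1 to 4 (right). Hypothalamus library 4 (20%) and pituitary library 2 (4.18%) stand highest on their sides.

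The measured excess of either tissue moved when these libraries were left out. Of the pituitary-restricted genes, 32 of 33 were called higher in caged pituitary, with a median log2 fold change of 3.99 and a range of 3.04 to 4.66. The median was 5.18 without hypothalamus library 4 and 5.81 without libraries 3 and 4. SLC34A2 was the exception, at 3.04 (adjusted p = 0.0906). Of the hypothalamus-restricted genes, 22 of 23 were called lower, with a median of -6.12, which became -9.6 without pituitary library 2. The latter size depends on near-zero counts, since 7, 5 and 12 of the 23 genes had 0 counts in pituitary libraries 1, 3 and 4. Among genes with a mean of at least 10 FPKM in the higher tissue, 37 were called higher in pituitary with a log2 fold change over 4, and 2 with one over 5. Those counts were 100 and 48 without hypothalamus library 4, and 137 and 90 in floor-water ducks. Lower calls past the same sizes numbered 203 and 118, 239 and 161 without pituitary library 2, and 158 and 61 in floor-water ducks.

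**Figure D2:**
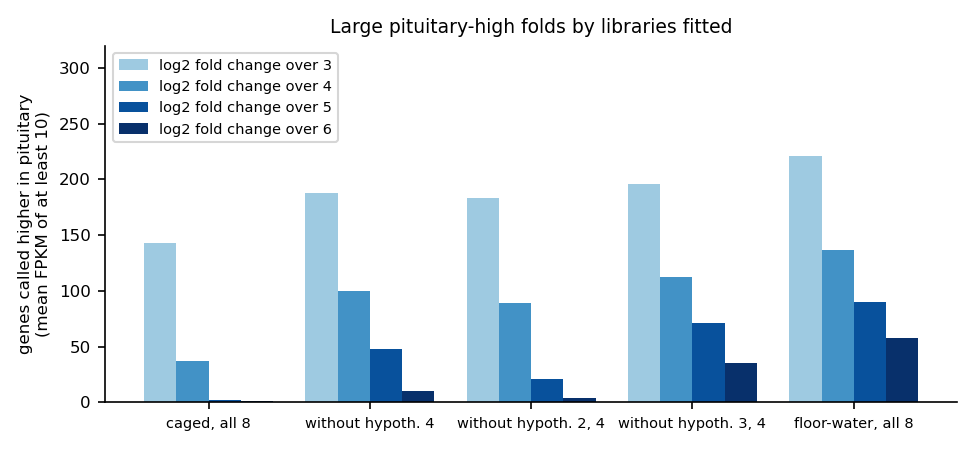
Bars count genes called higher in pituitary (edgeR, adjusted p under 0.05, mean of at least 10 FPKM in pituitary) whose log2 fold change passed 3, 4, 5 or 6, for fits of different libraries. With all caged libraries 37 genes passed 4 and 2 passed 5, against 100 and 48 without hypothalamus library 4 and 137 and 90 in floor-water ducks.

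The 15 named genes with the largest pituitary excess included the hormones PRL, GH1 and CGA and the lineage factors POU1F1 and NR5A1, which are described below. CEBPD, a transcription factor induced by glucocorticoids and inflammation, headed them at 6.85, 5.01, 15.5 and 24.1 CPM in hypothalamus and 384, 247, 385 and 286 CPM in pituitary. Its groups were far apart, with a log2 fold change of 4.66 ± 0.52 (adjusted p = 0.000143, edgeR). The others were LGR6 (a receptor for R-spondins), ECM1 (an extracellular matrix protein), FTCD (an enzyme of histidine breakdown), AGR2 (a protein disulfide isomerase of secretory epithelia), CRYBA2 (a crystallin), ESPN (an actin-bundling protein), PKP3 (a desmosomal plakophilin), TNS4 (a tensin) and SIX2 (a homeobox factor). Their log2 fold changes lay between 4.17 (SIX2) and 4.62 (LGR6). Without hypothalamus library 4 the value moved by over 1.5 times for each of these except ECM1, to between 4.85 (ESPN) and 6.1 (AGR2). ECM1, at 1.84, 1.17, 10.6 and 10.6 CPM against 43.4, 118, 283 and 81.1 CPM, instead moved from 4.44 to 3.72 without pituitary library 3, its highest.

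On the hypothalamus side the largest named difference was that of UTS2B, a urotensin-related peptide precursor, at 14.8, 54.1, 0.929 and 1.52 CPM and with 0 counts in every pituitary library. Hypothalamus library 2 held most of it. Taking 3 counts over the pituitary group as the limit that 0 counts allow, UTS2B was at least 1264-fold lower in pituitary (adjusted p = 0.00704, edgeR), and at least 407-fold without hypothalamus library 2. The glutamate transporter SLC1A2, which clears transmitter into astrocytes, read 254, 215, 872 and 150 CPM against 2.95, 2.56, 2.33 and 1.87 CPM. Its excess did not involve pituitary library 2, and the log2 fold change of -7.26 ± 0.66 (adjusted p = 6.49e-05, edgeR) became -6.41 without hypothalamus library 3. The perineuronal link proteins HAPLN4 and HAPLN2, the myelin glycoprotein OMG, the synaptotagmin SYT2, the homeobox factor IRX1, the glutamate receptor GRM2, the sulfate transporter SLC13A4, APOH, SFTPC and SCRG1 completed the group with the tachykinin precursor TAC1 and GFAP. Their log2 fold changes ran from -6.35 (SLC13A4) to -7.71 (IRX1). Each of these 12 moved by over 1.5 times without pituitary library 2. TAC1 had 0 counts in the other 3 pituitary libraries, and the rest then lay between -8.02 (SCRG1) and -11.38 (HAPLN2). Outside pituitary library 2, HAPLN2, HAPLN4 and SCRG1 reached at most 0.0652, 0.154 and 0.154 CPM in pituitary. IRX1 and SLC13A4 reached at most 0.0652 CPM there, and SFTPC, GRM2 and OMG at most 0.0963, 0.195 and 0.212 CPM. The sizes of the folds of all these genes therefore depend on near-zero counts. SFTPC also moved, to -6.42, without hypothalamus library 4. GRM2 was low in hypothalamus library 4, at 5.03 CPM beside 75.2 to 134 CPM in the others.

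Of 8 anterior pituitary hormone genes listed, 6 were in the table, and 6 of 6 tested were higher in pituitary, with a median log2 fold change of 4.21 beside 0.07 over all genes tested. That median was 5.28 without hypothalamus library 4, 5.98 without libraries 3 and 4 and 5.5 with limma. With library totals, without pituitary library 2 and without hypothalamus libraries 3 and 4, 5 were called, FSHB being the exception. Without hypothalamus library 1 alone, or library 3 alone, only POMC and TSHB were called, and GH1, PRL, CGA and FSHB were not. With libraries blocked by the number in their titles, 4 were called, CGA and FSHB being the exceptions. GH1, growth hormone, read 2739, 24.4, 2259 and 14112 CPM in hypothalamus and 153518, 60458, 84780 and 94707 CPM in pituitary. The hypothalamus values ran from 24.4 CPM in library 2 to 14112 CPM in library 4, and the tissues did not overlap. The log2 fold change was 4.36 ± 1.33 (adjusted p = 0.021, edgeR). It became 5.88 without hypothalamus library 4, and the call was lost without library 1 (4.17) or 3 (4.13).

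Prolactin, PRL, the hormone of broodiness in birds, read 1132, 8.69, 2604 and 8734 CPM against 51939, 69681, 116715 and 52965 CPM. Its pattern over libraries followed that of GH1, lowest in hypothalamus library 2 and highest there in library 4. The log2 fold change was 4.54 ± 1.4 (adjusted p = 0.0222, edgeR), became 5.87 without hypothalamus library 4 and lost its call without library 1 (4.27) or 3 (4.47).

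POMC, the corticotropin and melanotropin precursor, is also made by hypothalamic arcuate neurons. It read 724, 17.5, 1021 and 2941 CPM against 17978, 24617, 12938 and 25562 CPM, again with library 2 low and library 4 high in hypothalamus. The log2 fold change was 4.11 ± 1.11 (adjusted p = 0.012, edgeR), and 5.11 without hypothalamus library 4. How much of the hypothalamic POMC signal belonged to its own neurons was not tested. In hypothalamus library 2, where the restricted genes, POMC among them, were scarcest, it was 17.5 CPM. That library also differed from the others in peptide genes, being the lowest for NPY (15.6 CPM) and the highest for GRP (118 CPM). Its POMC value therefore need not hold for the neurons sampled in the others.

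CGA, the alpha subunit shared by the glycoprotein hormones, read 268, 2.09, 844 and 2163 CPM against 13317, 22110, 17641 and 11741 CPM. The log2 fold change of 4.31 ± 1.37 (adjusted p = 0.0256, edgeR) became 5.45 without hypothalamus library 4 and lost its call without library 1 (4.01) or 3 (4.32). FSHB, the follitropin beta subunit, read 15.3, 0, 33.6 and 77.9 CPM against 422, 902, 164 and 221 CPM. Its groups stayed apart, but the call (log2 fold change 3.75 ± 1.39, adjusted p = 0.0454, edgeR) was lost in 6 of the 8 fits that left out a library, with values of 3.04 to 4.02, and the fold became 4.71 without hypothalamus library 4. It was not lost without hypothalamus library 2 or 4.

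TSHB, the thyrotropin beta subunit, behaved differently over the libraries. It read 35.2, 30.9, 31.6 and 51.1 CPM in hypothalamus and 103, 138, 140 and 233 CPM in pituitary, without the spread between hypothalamus libraries seen for the other 5 hormones. Its log2 fold change was 2.04 ± 0.28 (adjusted p = 0.000363, edgeR), and it moved by less than 1.5 times whichever library was left out. Relative to GH1 in the same library, TSHB CPM was 0.0669% to 0.246% in pituitary and 0.362% to 126% in hypothalamus. PRL, in contrast, was 33.8% to 138% of GH1 in pituitary and 35.5% to 115% in hypothalamus, and LHX3 0.71% to 2.07% and 1.03% to 2.09%, so that the ratios overlapped between tissues. PENK, a peptide precursor, was 0.122% to 0.343% of GH1 in pituitary and 2.97% to 573% in hypothalamus. Its own CPM overlapped between tissues and was not called different, so that this ratio differed mainly through GH1. In FPKM the order of the hormones in pituitary was GH1 (93187 ± 34765, mean ± SD, n = 4), PRL (60840 ± 27253), POMC (14381 ± 4162), CGA (7334 ± 2403), FSHB (196 ± 160) and TSHB (16.3 ± 5.51). The spreads of GH1 and PRL overlapped. In pituitary library 1, TSHB had 103 CPM but 10.7 FPKM, and CGA 13317 CPM and 5790 FPKM. The length used for TSHB was thus the longer. Whether all counts of TSHB come from the thyrotropin beta transcript was not tested, so its levels and its evenness over hypothalamus libraries are uncertain.

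**Figure D3:**
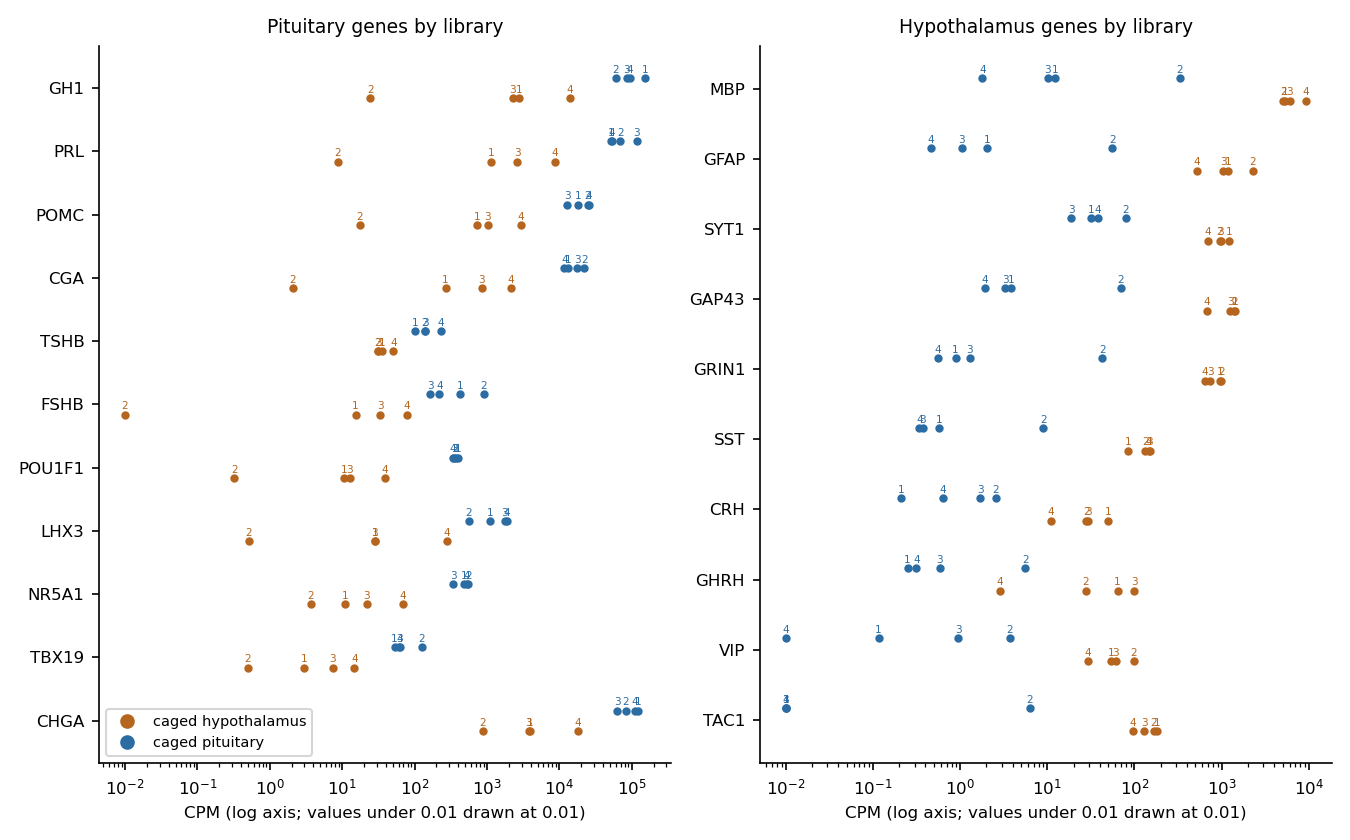
CPM (log axis) of 11 pituitary and 10 hypothalamus genes in each caged library, with the library number above each point. Pituitary genes reach their lowest hypothalamus value in library 2 and their highest in library 4 (GH1 24.4 and 14112 CPM), except that TSHB stays within 30.9 to 51.1 CPM. Hypothalamus genes are highest in pituitary library 2 (MBP 329 CPM against 1.8 to 12.2 CPM in the others).

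Of 17 lineage factors of the pituitary tested, 13 were higher and 2 lower in pituitary, with a median log2 fold change of 3.52, or 4.35 without hypothalamus libraries 3 and 4. POU1F1, which directs the somatotroph, lactotroph and thyrotroph lines, read 10.5, 0.323, 12.8 and 38.6 CPM against 403, 373, 353 and 338 CPM, and was even over the pituitary libraries. Its log2 fold change was 4.56 ± 1.02 (adjusted p = 0.00482, edgeR), and 5.54 without hypothalamus library 4. NR5A1, the gonadotroph factor, read 11.1, 3.69, 21.7 and 68.9 CPM against 483, 553, 343 and 527 CPM (4.18 ± 0.8, adjusted p = 0.00221, edgeR; 5.29 without hypothalamus library 4). TBX19, which activates POMC in corticotrophs, read 2.97, 0.493, 7.43 and 14.7 CPM against 52.9, 125, 61.7 and 62.2 CPM, with pituitary library 2 the highest (3.56 ± 0.84, adjusted p = 0.00623, edgeR; 4.37 without hypothalamus library 4).

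LHX3, required for the formation of most pituitary cell types, read 28.3, 0.51, 28.3 and 277 CPM against 1090, 559, 1754 and 1905 CPM. Hypothalamus library 4 stood far above libraries 1 and 3. The fold change of 3.99 ± 1.37 (adjusted p = 0.0341, edgeR) became 6.12 without that library, and the call was lost without hypothalamus library 1 (3.7) or 3 (3.7) or pituitary library 1 (4.05), 3 (3.8) or 4 (3.75). The early placodal factor PITX1 (3.94), the corticotroph factor NEUROD1 (3.52) and the gonadotrope and thyrotrope factor FOXL2 (3.66) were higher in pituitary with groups that did not overlap. Their log2 fold changes without hypothalamus library 4 were 4.92, 4.21 and 4.35.

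The activity-dependent factors on the list were higher in pituitary. NR4A1, which acts on the POMC promoter, read 10.4, 9.11, 30.2 and 14.3 CPM against 109, 572, 347 and 85.8 CPM, highest in pituitary library 2. Its log2 fold change was 4.12 ± 0.71 (adjusted p = 0.00127, edgeR) and 3.45 without that library. EGR1, which mediates gonadotropin-releasing hormone action on the LH beta gene, read 146, 117, 195 and 142 CPM against 1131, 1621, 960 and 351 CPM (2.76 ± 0.41, adjusted p = 0.000619, edgeR).

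The factors that were lower included PAX7, in mammals a pioneer factor of melanotrophs. It read 9.72, 7.29, 1.34 and 10.8 CPM in hypothalamus, low in library 3, and 0.231, 0, 0.13 and 0.0973 CPM in pituitary (-5.97 ± 0.98, adjusted p = 0.000988, edgeR; -6.6 without pituitary library 1). GATA3 read 13.1, 13, 1.75 and 14.1 CPM against 3.04, 1.91, 4.22 and 4.47 CPM, so that the tissues overlapped through hypothalamus library 3. Its call (-1.62, adjusted p = 0.0407, edgeR) was lost in 7 of 8 fits that left out a library, with values of -1.45 to -1.81. GATA2, a thyrotroph and gonadotroph factor, was called higher (0.89, adjusted p = 0.0429, edgeR) with overlapping groups, and lost the call in 6 of those 8 fits, at 0.66 to 0.93. ISL1 (0.85 ± 0.45, adjusted p = 0.138, edgeR) and LHX4 (-0.43 ± 0.95, adjusted p = 0.726, edgeR) were not called. LHX4 read 0.643, 4.13, 0.133 and 0.344 CPM against 0.655, 0.718, 0.913 and 1.63 CPM, and its fold change turned to 1.38 (adjusted p = 0.15, edgeR) without hypothalamus library 2. HESX1, an embryonic repressor, had 0 counts in every library.

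Among 18 receptors for releasing and inhibiting factors tested, 7 were higher, 7 lower and 4 not called in pituitary, beside 27.3% and 26.8% of all genes tested, and the list median was -0.33. With library totals 6 were higher and 9 lower. GHRHR, the growth hormone-releasing hormone receptor of somatotrophs, read 7.79, 0, 8.34 and 49.3 CPM against 272, 141, 211 and 199 CPM. Hypothalamus library 2 had 0 counts and library 4 the most, as for GH1. The log2 fold change of 3.66 ± 1.28 (adjusted p = 0.0372, edgeR) became 5.26 without hypothalamus library 4, and the call was lost without hypothalamus library 1 (3.42) or 3 (3.44) or pituitary library 1 (3.47), 3 (3.62) or 4 (3.65). AVPR1B, the vasotocin receptor type through which corticotrophs are stimulated, read 14.2, 0.68, 35.6 and 89.2 CPM against 367, 923, 224 and 812 CPM (4.06 ± 1.14, adjusted p = 0.0148, edgeR; 5.11 without hypothalamus library 4).

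TRHR, the thyrotropin-releasing hormone receptor, read 2.04, 3.59, 6.71 and 12.3 CPM against 85.7, 65.1, 57.4 and 46.5 CPM (3.37 ± 0.52, adjusted p = 0.000738, edgeR). DRD2, through which dopamine inhibits lactotrophs, read 10.1, 12.2, 10.9 and 16.1 CPM against 46.3, 40.4, 101 and 54.3 CPM (2.29 ± 0.31, adjusted p = 0.000366, edgeR). VIPR1, a receptor for vasoactive intestinal peptide, read 11.1, 12, 10.3 and 15.9 CPM against 33.3, 61.3, 62.4 and 35.8 CPM (1.97 ± 0.26, adjusted p = 0.000336, edgeR). For these 3 genes no pituitary library fell into the hypothalamus range, and TRHR was the one that varied most between hypothalamus libraries, highest in library 4. AVPR1A (2.32 ± 0.29, adjusted p = 0.000238) and the somatostatin receptor SSTR5 (2.2 ± 0.44, adjusted p = 0.00262, edgeR) were also higher.

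The somatostatin receptors divided by tissue. SSTR1 read 25.6, 66.2, 52.8 and 41.8 CPM against 1.56, 3.62, 2.28 and 1.95 CPM and was lower in pituitary (-4.3 ± 0.38, adjusted p = 5.77e-05, edgeR), with no overlap. SSTR3 (-1.38 ± 0.44, adjusted p = 0.0261, edgeR) lost its call without hypothalamus library 1 (-1.34) or 4 (-1.32), and SSTR4 (-0.95 ± 0.34, adjusted p = 0.0417, edgeR) in 7 of 8 such fits, at -0.74 to -1.06. ADCYAP1R1, the receptor for pituitary adenylate cyclase-activating peptide, read 71.6, 74.7, 86.2 and 62.9 CPM against 0.674, 5.96, 0.44 and 0.438 CPM, with pituitary library 2 the highest. It was lower in pituitary, at -5.28 ± 0.91 (adjusted p = 0.00131, edgeR), and at -7.2 without that library. NPFFR1, the receptor for gonadotropin-inhibitory hormone, read 19.2, 13.7, 11.3 and 10.6 CPM against 0, 0.786, 0 and 0.292 CPM (-5.65 ± 1.16, adjusted p = 0.00313, edgeR; -7.34 without pituitary library 2). The feeding-circuit receptors MC4R (-5.29 ± 0.51, adjusted p = 7.45e-05) and NPY1R (-2.87 ± 0.45, adjusted p = 0.000744, edgeR) were lower as well.

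The receptors not called were CRHR1, CRHR2, VIPR2 and GHSR. CRHR1, the corticotropin-releasing hormone receptor of corticotrophs, read 21.9, 29.6, 14.5 and 21.8 CPM against 73, 11.4, 52.3 and 47.8 CPM. In 3 pituitary libraries it was above every hypothalamus library, and in library 2 it was below them, with a log2 fold change of 1.07 ± 0.47 (adjusted p = 0.084, edgeR). It was called without that library (1.34, adjusted p = 0.00321, edgeR). CRHR2 (-0.67 ± 0.27, adjusted p = 0.0591) was called without pituitary library 2 (-0.86) or 4 (-0.84), and VIPR2 (-1.12 ± 0.45, adjusted p = 0.0613, edgeR) without hypothalamus library 2 (-1.31) or pituitary library 3 (-1.44). The ghrelin receptor GHSR was low in both tissues, at 1.41 to 3.72 and 0.963 to 4.98 CPM, with a fold change of 0.01 ± 0.55 that turned to -0.12, -0.18 and -0.65 without hypothalamus library 1, hypothalamus library 2 and pituitary library 4. A receptor gene that the deposited table describes as gonadotropin-releasing hormone II receptor-like (LOC106015026) read 3.95, 0.391, 7.89 and 33.4 CPM against 117, 185, 108 and 363 CPM (4.09 ± 1.09, adjusted p = 0.0118, edgeR; 5.56 without hypothalamus library 4).

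**Figure D4:**
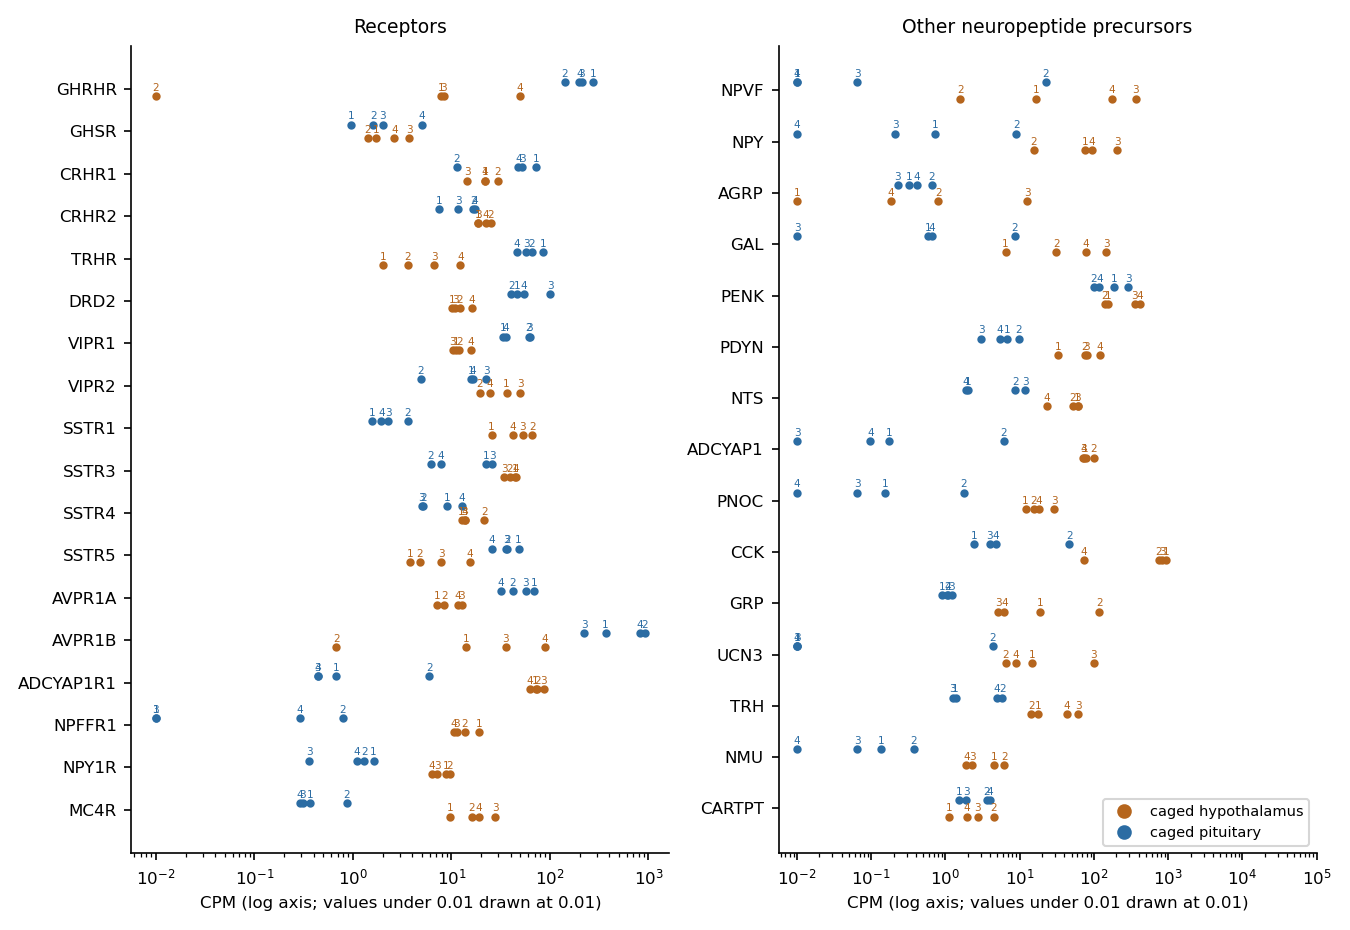
CPM (log axis) of 18 receptors and 15 neuropeptide precursors in each caged library, with the library number above each point. TRHR, DRD2 and VIPR1 are higher in every pituitary library, SSTR1 and MC4R lower, and CRHR1 overlaps only through pituitary library 2 (11.4 CPM). Most precursors are lower in pituitary, with library 2 the highest of the 4 for NPVF (22.5 CPM) and CCK (46.7 CPM), and NPVF, AGRP and UCN3 vary widely between hypothalamus libraries.

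Of 25 genes tested on the list of hypothalamic neuropeptide precursors, 19 were lower in pituitary and 0 higher, with 6 not called. The median log2 fold change was -4.65. The list also holds CRHBP, a binding protein, and NXPH4, a neurexin ligand, which are not precursors and were both among those called lower. The median was -5.77 without pituitary library 2, -3.95 without hypothalamus library 3, -3.34 with limma, and -3.27 with 15 lower without hypothalamus libraries 3 and 4. GHRH, CRH, TRH and SST were among the 19. GHRH, growth hormone-releasing hormone, read 64, 27.8, 98.9 and 2.87 CPM in hypothalamus and 0.25, 5.62, 0.587 and 0.316 CPM in pituitary. Hypothalamus library 4 was so low that it fell below pituitary library 2. The log2 fold change was -4.82 ± 1.32 (adjusted p = 0.0129, edgeR), -7.0 without pituitary library 2 and -4.21 without hypothalamus library 3.

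CRH, corticotropin-releasing hormone, read 50.2, 28.1, 29.5 and 10.9 CPM against 0.212, 2.58, 1.71 and 0.632 CPM (-4.52 ± 0.77, adjusted p = 0.00124, edgeR; -5.15 without pituitary library 2). Its binding protein, CRHBP, read 34.3, 28.6, 36.9 and 20 CPM and was found in pituitary library 2 alone, at 1.49 CPM (-6.28 ± 1.42, adjusted p = 0.00507, edgeR). TRH, thyrotropin-releasing hormone, read 17.9, 14.4, 61.8 and 42.8 CPM against 1.37, 5.83, 1.26 and 4.89 CPM (-3.36 ± 0.68, adjusted p = 0.00292, edgeR). For these 3 genes no pituitary library reached the lowest hypothalamus library.

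SST, somatostatin, was even over the hypothalamus at 83.6, 133, 149 and 145 CPM and read 0.578, 8.97, 0.375 and 0.34 CPM in pituitary (-5.62 ± 1.14, adjusted p = 0.00293, edgeR; -8.25 without pituitary library 2). VIP, the prolactin-releasing peptide of birds, read 53.8, 98.6, 61.2 and 29.2 CPM against 0.116, 3.71, 0.946 and 0 CPM (-5.64 ± 1.18, adjusted p = 0.00353, edgeR; -7.37 without pituitary library 2). ADCYAP1, the ligand of ADCYAP1R1, read 77, 98.8, 71.4 and 73.4 CPM against 0.173, 6.07, 0 and 0.0973 CPM (-5.64 ± 1.42, adjusted p = 0.00877, edgeR; -9.89 without pituitary library 2). In each case pituitary library 2 held most of the pituitary counts.

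NPVF, the precursor of gonadotropin-inhibitory hormone, read 16.6, 1.58, 367 and 175 CPM in hypothalamus and 0, 22.5, 0.0652 and 0 CPM in pituitary. Hypothalamus library 2 lay below pituitary library 2, and the difference was not called (-4.62 ± 2.22, adjusted p = 0.107, edgeR). Without pituitary library 2, with the other pituitary libraries at 0 or 0.0652 CPM, it was called (-12.34, adjusted p = 0.00407, edgeR), and without hypothalamus library 3 the difference was -3.51 (adjusted p = 0.235, edgeR). NPY, which promotes feeding, read 75.5, 15.6, 206 and 93.9 CPM against 0.732, 8.99, 0.212 and 0 CPM (-5.29 ± 1.49, adjusted p = 0.0149, edgeR; -8.28 without pituitary library 2 and -4.62 without hypothalamus library 3). AGRP, made with NPY in arcuate neurons, was near the limit of detection outside hypothalamus library 3, at 0, 0.799, 12.7 and 0.184 CPM, and 0.327, 0.649, 0.228 and 0.413 CPM in pituitary. It was not called (-3.08 ± 1.58, adjusted p = 0.128), was called without hypothalamus library 1 (-3.49, adjusted p = 0.049, edgeR), and turned to 0.29 (adjusted p = 0.863, edgeR) without library 3, which held most of its counts.

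Precursors that mark particular nuclei differed widely between hypothalamus libraries. The gene described in the deposited table as vasotocin-neurophysin VT-like (LOC113843450), the avian antidiuretic peptide, read 155, 4.27, 375 and 75.3 CPM, and 0.616, 18, 0.538 and 0.292 CPM in pituitary. The gene described there as neurophysin 1 (LOC101790900) read 140, 1.65, 322 and 83.2 CPM against 0.597, 16.6, 0.277 and 0.243 CPM. Both were lowest in hypothalamus library 2, below pituitary library 2, and highest in library 3. Their log2 fold changes were -4.96 ± 1.66 (adjusted p = 0.0314) and -4.94 ± 1.76 (adjusted p = 0.0397, edgeR). Without pituitary library 2 they were -8.33 and -8.55, and the calls were lost in 5 of 8 and 6 of 8 fits that left out a library, at -4.0 to -4.95 and -4.07 to -5.11. LOC113843510, described as vasopressin-neurophysin 2-copeptin, was not called (-3.79 ± 1.45, adjusted p = 0.0509, edgeR), but was without hypothalamus library 2 (-4.17) or pituitary library 2 (-7.05).

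UCN3, a ligand of CRHR2, read 14.6, 6.51, 99.8 and 8.91 CPM, highest in hypothalamus library 3, and was found in pituitary library 2 alone at 4.34 CPM. Its call (-4.88 ± 1.84, adjusted p = 0.0488, edgeR) remained only without pituitary library 2, and in the other 7 fits that left out a library it was lost, at -3.19 to -5.22. GAL, galanin, read 6.45, 30.9, 147 and 77.6 CPM against 0.578, 8.61, 0 and 0.657 CPM (-4.72 ± 1.5, adjusted p = 0.0253, edgeR). It became -7.42 without pituitary library 2, and the call was lost without hypothalamus library 3 (-3.95) or pituitary library 1 (-4.38) or 4 (-4.4). GRP, gastrin-releasing peptide, read 18.9, 118, 5.15 and 6.24 CPM against 0.905, 1.06, 1.22 and 1.07 CPM, and its -5.12 ± 1.06 (adjusted p = 0.00331, edgeR) became -3.25 without hypothalamus library 2. CCK, cholecystokinin, read 926, 745, 836 and 73.7 CPM, low in library 4, against 2.41, 46.7, 3.95 and 4.81 CPM (-5.48 ± 1.22, adjusted p = 0.00481, edgeR; -7.5 without pituitary library 2).

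PDYN, the dynorphin precursor, read 32.7, 75.4, 80.1 and 121 CPM against 6.82, 9.78, 3.05 and 5.37 CPM (-3.63 ± 0.47, adjusted p = 0.000294, edgeR), and PNOC, the nociceptin precursor, 12, 15.5, 29.2 and 18 CPM against 0.154, 1.76, 0.0652 and 0 CPM (-5.2 ± 1.18, adjusted p = 0.00522, edgeR; -7.94 without pituitary library 2). PENK, the enkephalin precursor, read 156, 140, 353 and 419 CPM against 187, 99.2, 291 and 118 CPM, overlapped between tissues and was not called (-0.62 ± 0.44, adjusted p = 0.266, edgeR). Of the remaining genes of the list, TAC1, NTS (-2.99), NMU (-4.65; -5.77 without pituitary library 2), NXPH4 (-2.44) and SCG2 (-0.75) were called lower, the last with its call lost in 5 of 8 fits at -0.62 to -0.77. CARTPT (0.11 ± 0.5), TAC3 (0.11 ± 1.08) and QRFP (-1.35 ± 1.0) were low in both tissues and not called. CARTPT turned to -0.14 without hypothalamus library 1, -0.11 without pituitary library 2 and -0.14 without pituitary library 4. TAC3 turned to -0.16 without hypothalamus library 1, -0.11 without pituitary library 3 and -0.55 without pituitary library 4. PMCH, melanin-concentrating hormone, did not pass the count filter, with counts in 3 of 8 libraries, and was not tested. It read 0, 4.3, 1.22 and 7.78 CPM, with 0 counts in every pituitary library. By the limit of 3 counts over the group, the hypothalamus mean was at least 236-fold above pituitary, and at least 131-fold without hypothalamus library 4. Hypothalamus library 1, also at 0, overlapped the pituitary.

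Of 30 transcription factors that pattern the hypothalamus, 19 were lower and 1 higher in pituitary, with a median of -3.55. Without hypothalamus libraries 3 and 4, 12 were lower and 4 higher at a median of -2.9, and with limma the median was -1.42. LHX9, of the tuberal and posterior hypothalamus, read 106, 61.8, 81.9 and 16.7 CPM, low in library 4, and in pituitary was found in library 2 alone at 4.92 CPM (-5.73 ± 1.67, adjusted p = 0.0175, edgeR). POU3F4 read 8.26, 8.5, 5.72 and 9.23 CPM against 0.385, 0.581, 0.245 and 0.632 CPM (-4.1 ± 0.38, adjusted p = 7.12e-05, edgeR). The higher gene was SIX3, expressed in the embryonic forebrain and the pituitary placode alike, at 27.7, 18.5, 47.4 and 83.6 CPM against 424, 211, 287 and 417 CPM (2.92 ± 0.47, adjusted p = 0.000916, edgeR). NKX2-1, which specifies the ventral hypothalamus, was low in abundance at 0.947, 3.13, 6.07 and 5.35 CPM and was seen in pituitary library 2 alone, at 0.137 CPM.

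Of 8 genes of monoamine synthesis and transport tested, 4 were lower and 2 higher, beside 26.8% and 27.3% of all genes tested. Without hypothalamus libraries 2 and 4 they numbered 2 lower and 3 higher, and the median moved from -1.88 to -0.39, or to -0.32 without library 2 alone. With limma, and also without hypothalamus libraries 3 and 4, they numbered 4 and 1, and without pituitary library 2 they numbered 3 and 1. TH, the rate-limiting enzyme of dopamine synthesis, read 7.15, 25, 10.7 and 3.44 CPM and in pituitary was found in library 2 alone at 0.94 CPM (-5.57 ± 1.51, adjusted p = 0.0123, edgeR; -4.88 without hypothalamus library 2). DDC, which makes dopamine from its precursor, read 30, 157, 67.6 and 49.5 CPM against 0.231, 3.9, 0.261 and 0.389 CPM (-5.97 ± 1.09, adjusted p = 0.00171, edgeR; -8.09 without pituitary library 2 and -5.34 without hypothalamus library 2). GCH1, which makes the cofactor of TH, was higher in pituitary, at 10.5, 22.4, 17 and 50 CPM against 87.4, 140, 181 and 218 CPM (2.65 ± 0.49, adjusted p = 0.00183, edgeR). GCH1 thus lay on the opposite side of the contrast from TH and DDC.

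Neural and glial genes lay on the hypothalamus side. All 11 neuron markers tested and all 12 myelin and oligodendrocyte markers tested were lower in pituitary, with medians of -3.3 and -5.11, the latter -5.73 without pituitary library 2. MBP, myelin basic protein, read 5343, 5085, 5997 and 9264 CPM against 12.2, 329, 10.1 and 1.8 CPM. The pituitary value was carried by library 2, and the log2 fold change of -6.18 ± 1.57 (adjusted p = 0.00917, edgeR) became -9.69 without it. The growth-cone protein GAP43 (-5.91 ± 1.27, adjusted p = 0.00401; -8.67 without pituitary library 2) and the vesicle calcium sensor SYT1 (-4.51 ± 0.45, adjusted p = 8.59e-05, edgeR) stood for the neurons.

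Of 35 genes of GABA and glutamate signalling tested, 32 were lower and 2 higher, with a median of -4.4, or -3.22 with limma. GRIN1, the obligate NMDA receptor subunit, read 955, 989, 744 and 645 CPM against 0.886, 42.6, 1.29 and 0.559 CPM (-6.2 ± 1.49, adjusted p = 0.00709, edgeR; -9.87 without pituitary library 2), and GRM8 had a fold change of -6.32 ± 1.35 (-10.62 without that library). Outside that library GRM8 reached at most 0.0973 CPM in pituitary, so the larger fold depends on near-zero counts. The exceptions were GRIN3A, a modulatory NMDA receptor subunit, at 41.5, 39.8, 43.2 and 37.6 CPM against 115, 130, 90 and 90.2 CPM (1.39 ± 0.15, adjusted p = 0.000125, edgeR), and GABRG3, a GABA-A receptor subunit, at 6.08, 6.15, 9.54 and 8.15 CPM against 20, 23.9, 25.1 and 28.2 CPM (1.7 ± 0.21, adjusted p = 0.000225, edgeR). In neither did the tissues overlap, and neither value moved by over 1.5 times when a library was left out.

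Among 12 astrocyte and tanycyte markers tested, 10 were lower and 0 higher (median -3.25). GFAP, the astrocyte filament, read 1185, 2267, 1039 and 523 CPM against 2.06, 55.4, 1.04 and 0.462 CPM (-6.41 ± 1.61, adjusted p = 0.00859, edgeR). Of 8 choroid plexus markers tested, 5 were lower and 1 higher, with a median of -2.96. The median was -1.17 with limma, -2.12 without hypothalamus libraries 2 and 4, and -1.92 without library 2. With limma, and also without libraries 2 and 4, 4 were lower and 0 higher. TTR, the thyroid hormone carrier made by choroid plexus, read 401, 12606, 76.1 and 5.28 CPM against 7.91, 9.86, 1.17 and 0 CPM. Hypothalamus library 2 held nearly all of it and library 4 less than pituitary libraries 1 and 2, and the log2 fold change of -9.43 ± 2.68 (adjusted p = 0.0156, edgeR) became -5.08 without hypothalamus library 2 and -10.14 without pituitary library 2. KL, also expressed in choroid plexus, was higher in pituitary at 14.7, 18.8, 18.8 and 9.11 CPM against 59.1, 26.3, 51.5 and 20.5 CPM (1.36 ± 0.38, adjusted p = 0.0137, edgeR). Its call was lost with limma (0.77, adjusted p = 0.0595), without hypothalamus libraries 2 and 4 (1.23, adjusted p = 0.075, edgeR) and without libraries 3 and 4 (1.23, adjusted p = 0.0756, edgeR).

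Of 14 epithelial markers tested, 13 were higher in pituitary and 0 lower, with a median of 3.4. The median was 4.1 without hypothalamus library 4, 4.72 without libraries 3 and 4 and 2.47 with limma. KRT8, a keratin of simple epithelia, read 2.06, 0.51, 5.2 and 14.6 CPM against 101, 72.1, 104 and 101 CPM (4.08 ± 0.85, adjusted p = 0.00335, edgeR; 5.18 without hypothalamus library 4). EPCAM, an adhesion molecule of epithelia, read 3.38, 0.731, 6.18 and 26.2 CPM against 142, 116, 174 and 119 CPM (3.92 ± 0.91, adjusted p = 0.00579, edgeR; 5.32 without hypothalamus library 4). In both, hypothalamus library 2 was the lowest and library 4 the highest, as for GH1.

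Of 8 markers of pituitary stem and folliculostellate cells tested, 2 were higher and 3 lower, beside 27.3% and 26.8% of all genes tested, with a median of -0.03. ALDH1A1, a retinoic acid-producing enzyme, read 5.76, 1.5, 6.71 and 23 CPM against 60.2, 117, 59.4 and 92 CPM (3.16 ± 0.71, adjusted p = 0.00511, edgeR; 4.14 without hypothalamus library 4), and the chemokine CXCL12 was higher too (2.56 ± 0.44, adjusted p = 0.00127, edgeR). SOX2 (130, 109, 146 and 119 CPM against 44.9, 30.3, 44.4 and 50.8 CPM) and S100B (132, 205, 94.4 and 216 CPM against 31.8, 26.4, 27.3 and 41.6 CPM), which brain progenitors and glia also express, were lower, at -1.57 ± 0.18 and -2.35 ± 0.29 (adjusted p = 0.000165 and 0.000219, edgeR).

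Of 14 endothelial markers tested, 5 were higher and 4 lower, beside 27.3% and 26.8% of all genes tested, and the median was 0.45. They numbered 4 and 1 without hypothalamus libraries 2 and 4, and 4 and 2 without libraries 3 and 4. PLVAP, the diaphragm protein of fenestrated capillaries, read 3.22, 3.04, 5.79 and 20.5 CPM against 117, 73.8, 116 and 199 CPM (3.96 ± 0.68, adjusted p = 0.00127, edgeR; 4.97 without hypothalamus library 4). The endothelial receptor TIE1 was higher at 13.2, 11, 14.1 and 22.9 CPM against 67.8, 42.4, 59 and 130 CPM (2.29 ± 0.37, adjusted p = 0.000946, edgeR). CDH5, endothelial cadherin, was lower at 27.8, 25.3, 21.9 and 25.8 CPM against 12.1, 10.6, 8.93 and 8.32 CPM (-1.33 ± 0.17, adjusted p = 0.00031, edgeR), as was the receptor FLT1 (-0.69 ± 0.18, adjusted p = 0.00899, edgeR). The tissues did not overlap for any of these 4.

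Of 15 fibroblast and mural markers tested, 7 were higher and 3 lower, beside 27.3% and 26.8% of all genes tested. The median of 0.73 was 0.42 without hypothalamus library 4, 1.35 without hypothalamus library 2, 0.39 with library totals and 0.31 with limma or without pituitary library 2. The collagens COL6A2 (3.61, 6.8, 6.31 and 7.44 CPM against 77.9, 72.4, 50.8 and 49.8 CPM; 3.38 ± 0.27, adjusted p = 3.96e-05, edgeR) and COL3A1 (2.8 ± 0.41, adjusted p = 0.000518, edgeR) were higher in pituitary. PDGFRA, which oligodendrocyte precursors share with fibroblasts, was lower at 108, 77.2, 107 and 78.9 CPM against 8.61, 14.8, 8.38 and 4.67 CPM (-3.35 ± 0.34, adjusted p = 9.01e-05, edgeR), and so was the matrix protein SPARC (-1.1 ± 0.14, adjusted p = 0.000253, edgeR), which astrocytes also make.

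Of 11 microglia and macrophage markers tested, 2 were higher and 2 lower, beside 27.3% and 26.8% of all genes tested. CSF1R, the receptor microglia depend on, was lower at 50.2, 87.2, 72.9 and 90.1 CPM against 21.3, 18.7, 29.2 and 16.5 CPM (-1.81 ± 0.24, adjusted p = 0.000336, edgeR). The lysosomal genes CTSS (0.76) and LAPTM5 (0.55) were called higher, but with library totals as the scaling 0 members were higher and 3 lower, as with limma, and 0 and 2 without hypothalamus libraries 3 and 4. Of 11 T and B lymphocyte markers 4 were higher and 0 lower, among them the T cell receptor subunit CD3E at 1.47, 0.238, 1.77 and 5.14 CPM against 24.1, 10.4, 9.96 and 22 CPM (2.95 ± 0.77, adjusted p = 0.0104, edgeR; 3.84 without hypothalamus library 4). Of 3 erythrocyte markers found by symbol, the factor TAL1 was called lower (-0.98, adjusted p = 0.0464, edgeR), a call lost in 6 of 8 fits that left out a library, at -0.82 to -1.05. The 3 genes described as hemoglobin subunits held 0.178% to 0.406% of counts in hypothalamus and 0.179% to 0.386% in pituitary, and none of them was called. Of 7 skeletal muscle markers 1 was higher and 3 lower. These were led by TNNC2, at 0, 0.612, 0.472 and 1.77 CPM against 11.5, 5.44, 5.17 and 17.2 CPM (3.8 ± 1.04, adjusted p = 0.0128, edgeR; 4.75 without hypothalamus library 4), and PVALB, which is also an interneuron gene, at 154, 152, 122 and 552 CPM against 0.347, 13.8, 0.864 and 0.754 CPM (-5.95 ± 1.3, adjusted p = 0.00438, edgeR; -8.59 without pituitary library 2 and -5.16 without hypothalamus library 4). Of 11 photoreceptor and pineal markers tested, 1 was higher and 0 lower, or 0 and 1 with library totals.

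The secretory machinery lay on the pituitary side. Of 52 genes of protein entry into the endoplasmic reticulum and of secretion tested, 42 were higher and 3 lower in pituitary, with a median of 1.04, or 34 and 5 with library totals. CRELD2, a chaperone induced by endoplasmic reticulum stress, read 54.2, 51.1, 57.7 and 106 CPM against 338, 310, 307 and 253 CPM (2.17 ± 0.25, adjusted p = 0.000172, edgeR). CREB3L2, a transcription factor of the secretory pathway, read 57.3, 33.7, 38.5 and 72.7 CPM against 243, 218, 174 and 194 CPM (2.04 ± 0.25, adjusted p = 0.000237, edgeR). The translocation protein SEC62 (-0.95 ± 0.13) and the signal recognition particle subunit SRP9 (-0.93 ± 0.15) went the other way (adjusted p = 0.000381 and 0.000978, edgeR).

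Of 14 granin and prohormone processing genes tested, 6 were higher and 5 lower, beside 27.3% and 26.8% of all genes tested. They numbered 5 and 7 with library totals or limma, and 5 and 2 without hypothalamus libraries 2 and 4 or 3 and 4. CHGA, chromogranin A, read 3956, 882, 3755 and 18151 CPM against 122659, 83322, 63446 and 109271 CPM (3.82 ± 0.82, adjusted p = 0.00389, edgeR; 5.05 without hypothalamus library 4). QPCT, which forms the pyroglutamyl end of hormones, was higher at 55, 48.6, 58.6 and 96.5 CPM against 209, 152, 245 and 304 CPM (1.82 ± 0.27, adjusted p = 0.000639, edgeR). The prohormone convertase PCSK2 was lower in every pituitary library, at 327, 262, 296 and 144 CPM against 19.5, 33.1, 30 and 12.8 CPM (-3.43 ± 0.37, adjusted p = 0.000118, edgeR). Its partner PCSK1 was not called (0.13 ± 0.37, adjusted p = 0.789, edgeR).

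Of 30 synaptic vesicle and exocytosis genes tested, 25 were lower and 2 higher (median -2.77). SYT7 was lower (-5.5 ± 1.26, adjusted p = 0.00548, edgeR; -7.82 without pituitary library 2). The exceptions were the secretory granule GTPases RAB3B (0.6 ± 0.21, adjusted p = 0.0393) and RAB27A (0.42 ± 0.15, adjusted p = 0.0406, edgeR). Their calls were lost in 6 of 8 and 7 of 8 fits that left out a library, at 0.43 to 0.61 and 0.3 to 0.47, and no member was called higher with library totals.

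All 67 cytosolic ribosomal protein genes tested were higher in pituitary, with a median of 1.45, and with library totals the count was again 67 at a median of 1.1. RPS29 read 124, 115, 118 and 155 CPM against 482, 412, 410 and 909 CPM (2.11 ± 0.28, adjusted p = 0.000302, edgeR), highest in pituitary library 4. Single members of this family are uncertain, since reads can be shared with near-identical copies. Of 62 genes of oxidative phosphorylation tested, 15 were higher and 10 lower, beside 27.3% and 26.8% of all genes tested. The median of 0.14 turned to -0.21 (4 higher, 21 lower) with library totals and to -0.23 with limma. SDHA of complex II was lower (-0.92 ± 0.11, adjusted p = 0.000185, edgeR) and NDUFV3 of complex I higher (1.08 ± 0.12, adjusted p = 0.00013, edgeR).

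Sterol synthesis genes were called lower more often than higher in pituitary, with 9 of 17 genes lower and 1 higher (median -0.69). FDFT1, squalene synthase, read 166, 261, 203 and 201 CPM against 33, 40, 34.4 and 47.1 CPM (-2.43 ± 0.18, adjusted p = 3.25e-05, edgeR). The pathway's regulator SREBF2 was the gene called higher (0.5 ± 0.15, adjusted p = 0.0178, edgeR), without hypothalamus library 1 (0.48) or 3 (0.46) no longer so. With library totals 14 members were lower and 0 higher.

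Of 17 steroid and other hormone receptors tested, 6 were higher and 8 lower, beside 27.3% and 26.8% of all genes tested. The count of higher members was 4 with library totals and without pituitary library 2. PGR, the progesterone receptor, read 2.13, 1.29, 6.87 and 12.5 CPM against 33.1, 72.4, 30.7 and 38.8 CPM (2.95 ± 0.69, adjusted p = 0.00596, edgeR; 3.67 without hypothalamus library 4). ESR1, estrogen receptor alpha, was higher (2.02 ± 0.41, adjusted p = 0.00311, edgeR), and ESR2 (-5.25 ± 1.11, adjusted p = 0.00369) and CYP19A1, the aromatase that makes estrogens in the brain (-5.62 ± 1.54, adjusted p = 0.0133, edgeR), were lower. NPY5R was lower at 16.6, 16.5, 14.5 and 10.6 CPM against 0.154, 0.581, 0.489 and 0.243 CPM (-5.29 ± 0.45, adjusted p = 4.79e-05, edgeR).

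The glucocorticoid receptor NR3C1 read 34.7, 31.6, 41.6 and 48.2 CPM against 104, 76.5, 110 and 87.2 CPM (1.28 ± 0.18, adjusted p = 0.000425, edgeR). Of 15 genes that respond to glucocorticoids tested, 8 were higher and 2 lower (median 1.21). Besides CEBPD, HSD11B1, which regenerates active glucocorticoid, read 0.536, 0.136, 0.708 and 4.78 CPM against 19, 12.8, 24.6 and 43.6 CPM (4.04 ± 0.98, adjusted p = 0.00747, edgeR; 5.75 without hypothalamus library 4). FKBP5, a receptor co-chaperone, read 59.3, 155, 94.5 and 264 CPM against 501, 1409, 505 and 1243 CPM (2.68 ± 0.54, adjusted p = 0.00281, edgeR). GLUL, glutamine synthetase and an astrocyte gene, was lower (-1.92 ± 0.18, adjusted p = 7.07e-05, edgeR).

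Of 14 genes of thyroid hormone handling tested, 5 were higher and 2 lower, beside 27.3% and 26.8% of all genes tested. They numbered 4 and 4 with limma and also without hypothalamus library 4. The median of 0.34 was -0.02 with library totals. The transporter SLC16A10 read 4.72, 3.01, 5.66 and 10.4 CPM against 48.3, 36.8, 47.7 and 41.8 CPM (2.88 ± 0.36, adjusted p = 0.00023, edgeR) and the partner receptor RXRA was higher too (1.28 ± 0.29, adjusted p = 0.00515, edgeR). EYA3, a coactivator tied to long-day signalling in the pars tuberalis of mammals, read 45.2, 41.2, 50.1 and 55.7 CPM against 114, 104, 101 and 112 CPM (1.17 ± 0.13, adjusted p = 0.00013, edgeR).

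Of 17 circadian clock genes tested, 3 were higher and 6 lower, beside 27.3% and 26.8% of all genes tested. These counts were 1 and 9 with library totals or limma, 1 and 8 with median-ratio scaling, 5 and 5 with upper-quartile scaling, 2 and 6 without hypothalamus library 4, 1 and 6 without hypothalamus libraries 2 and 4, and 1 and 4 without libraries 3 and 4. PER3 was higher at 18.6, 14.1, 22.2 and 23.9 CPM against 79.1, 49.3, 91.8 and 76.1 CPM (1.91 ± 0.23, adjusted p = 0.000218, edgeR), and the activator NPAS2 (-1.7 ± 0.23, adjusted p = 0.000343) and the repressor BHLHE41 (-1.21 ± 0.14, adjusted p = 0.0002, edgeR) were lower. The output factor HLF (0.74 ± 0.26, adjusted p = 0.0376, edgeR) lost its call in 6 of 8 fits that left out a library, at 0.49 to 0.79.

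Of 18 immediate early genes tested, 14 were higher and 1 lower, with a median of 1.51 and of 1.17 with library totals. EGR2 read 0.375, 0.544, 0.885 and 1.38 CPM against 9.13, 16.8, 8.28 and 4.18 CPM (3.6 ± 0.55, adjusted p = 0.000702, edgeR). FOS read 92.5, 71.7, 105 and 68.9 CPM against 380, 414, 472 and 187 CPM (2.1 ± 0.29, adjusted p = 0.000372, edgeR), and DUSP1, a phosphatase that ends MAP kinase signalling, 30.1, 23.7, 68 and 65.9 CPM against 369, 805, 508 and 297 CPM (3.4 ± 0.45, adjusted p = 0.000345, edgeR). Pituitary library 4 was the lowest of its group for all 3 genes. The lower gene was ARC, a synaptic plasticity gene of neurons, at 61, 63.5, 45.9 and 33.2 CPM against 2.83, 12.1, 3.96 and 1.29 CPM (-3.33 ± 0.63, adjusted p = 0.00206, edgeR; -4.28 without pituitary library 2).

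Of 28 cell division genes tested, 17 were higher and 1 lower (median 1.42, and 1.09 with library totals). With limma 12 were higher at a median of 0.79, and 11 were higher without hypothalamus libraries 2 and 4 or 3 and 4. CDK1, the mitotic kinase, read 1.47, 2.86, 2.45 and 2.07 CPM against 12.8, 29.4, 52.3 and 3.5 CPM (3.47 ± 0.72, adjusted p = 0.00336, edgeR; 2.78 without pituitary library 3). RRM2, which supplies deoxynucleotides, read 1.34, 1.12, 3.33 and 2.89 CPM against 21.3, 38.1, 45.9 and 4.33 CPM (3.66 ± 0.71, adjusted p = 0.00229, edgeR). Pituitary library 4 was far below the other 3 and near the hypothalamus. Over the list, the mean log2(FPKM + 1) was 1.97, 2.51, 2.72 and 1.38 in pituitary libraries 1 to 4 and 1.34 to 1.58 in hypothalamus. The gene called lower was MKI67, the usual marker of cycling cells, which was scarce in hypothalamus (0.322, 0.221, 0.354 and 0.826 CPM) and had 0 counts in every pituitary library. CDK1 and RRM2 were counted in every pituitary library. Whether the deposited counts capture the MKI67 transcript was not tested, so its call is uncertain.

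Of 27 motile cilium genes tested, 6 were higher and 6 lower, beside 27.3% and 26.8% of all genes tested. These counts were 3 and 8 with library totals and also without hypothalamus libraries 2 and 4, 5 and 9 without library 4, and 4 and 7 with limma. CFAP65 (2.15 ± 0.31, adjusted p = 0.00049) and RSPH1 (0.87 ± 0.21, adjusted p = 0.00705) were higher and the cilium factor FOXJ1 (-1.59 ± 0.39, adjusted p = 0.00777, edgeR) lower. FOXJ1 read 16.8, 18.3, 15 and 5.12 CPM against 5.26, 4.48, 5.49 and 3.11 CPM and overlapped through hypothalamus library 4.

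**Figure D5:**
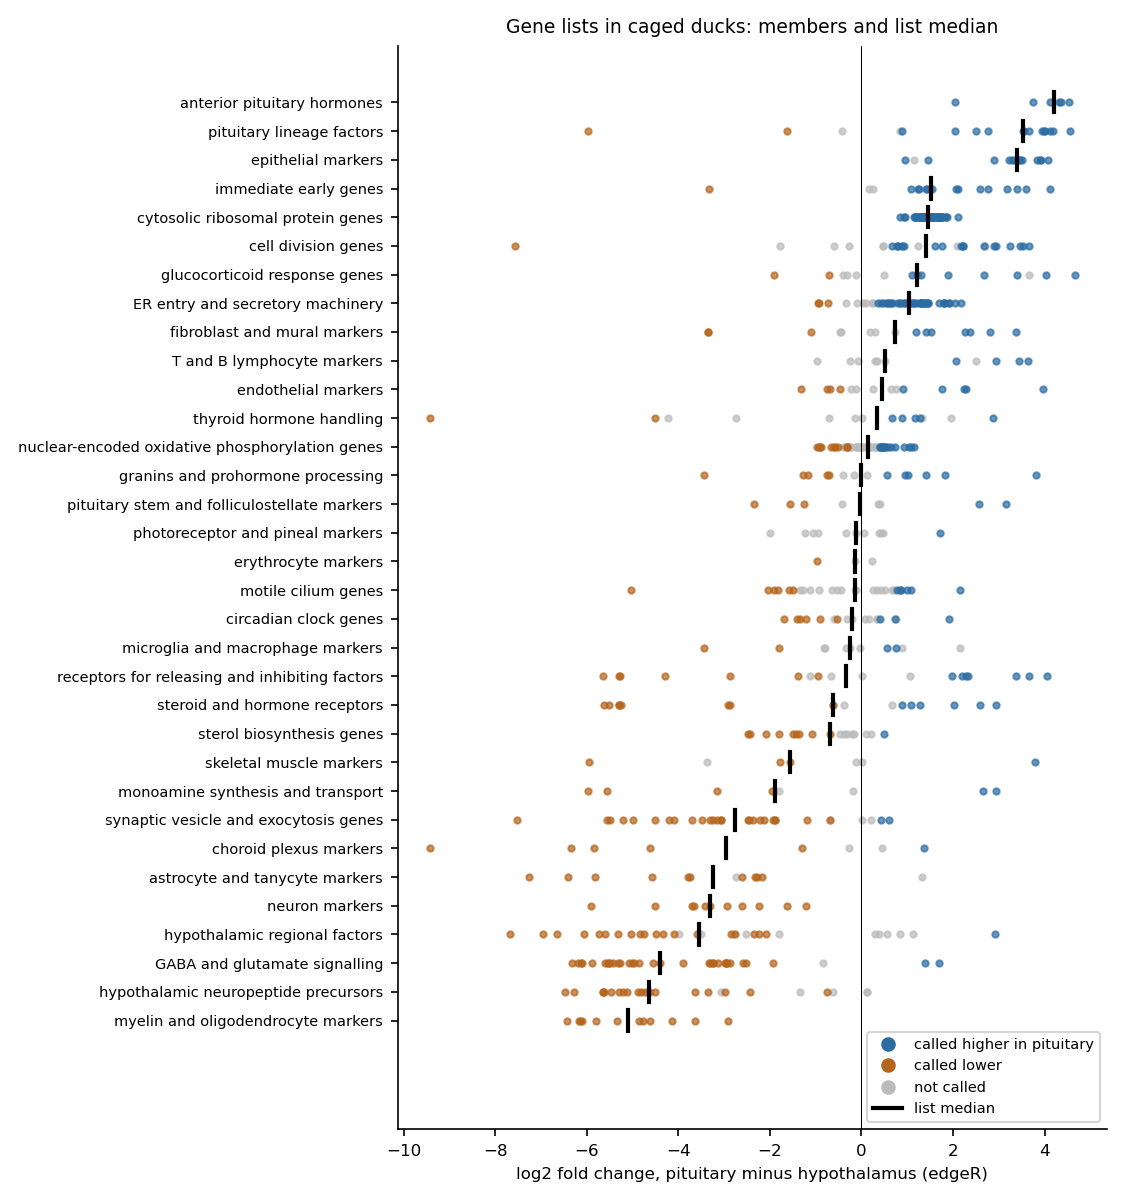
Points are the tested members of 33 gene lists, placed by their log2 fold change (pituitary minus hypothalamus, edgeR, TMM scaling), blue where called higher in pituitary, brown where called lower and grey where not called; black bars are list medians. Hormones (median 4.21), lineage factors (3.52) and epithelial markers (3.4) lie at the top, and myelin markers (-5.11), neuropeptide precursors (-4.65) and GABA and glutamate genes (-4.40) at the bottom.

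Of the genes named by the rule, PXK, RAB28, MMP17, RNF139 and SDF2 were called higher at 0.32 to 0.49, and each lost its call whichever library was left out, with values of 0.22 to 0.54. PHKA1, RGS9BP, PDHA1, CACNG5 and ABTB1 were called lower at -0.33 to -1.13 and lost it in 7 of 8 such fits, with values of -0.29 to -1.21. With library totals RAB28, MMP17 and RNF139 stood at -0.02, -0.01 and -0.03.

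The floor-water ducks gave a separate measurement of the tissue contrast, with no library shared. There 8935 of 15878 genes (56.3%) were called. Of 15443 genes tested in both housings, 7199 were called in both, and 7194 of these had the same direction, 84.8% of the caged calls and 81.3% of the floor-water calls. The log2 fold changes of both contrasts had a Pearson correlation of 0.88 across genes, which are not independent replicates. Floor-water list medians were smaller in size for hypothalamus patterning factors (-1.14), choroid plexus markers (-0.36) and neuropeptide precursors (-2.75). They were larger for hormones (7.86), epithelial markers (5.29) and fibroblast and mural markers (3.09, beside 0.73 in caged ducks). Some list medians had the other sign in floor-water ducks. Among them were skeletal muscle markers (1.09, beside -1.57 in caged ducks) and steroid and other hormone receptors (0.56, beside -0.62). Receptors for releasing and inhibiting factors (0.49, beside -0.33) and motile cilium genes (0.88, beside -0.15) did so too. On the list of neuropeptide precursors, 14 were called lower in floor-water ducks, beside 19 in caged ducks. UTS2B (-3.38, adjusted p = 0.0574, edgeR), PDYN (-0.21) and GAL (0.52) were not called in floor-water ducks. Nor, among other genes called lower in caged pituitary, were SST (-1.56, adjusted p = 0.394, edgeR), TRH (-2.1), PNOC (-2.56) and UCN3 (-3.11). MC4R (-2.09), TTR (-2.54) and DDC (-3.44) were not called there either. The 5 genes called in opposite directions were LRP2, PPP1R1C, AQP1, MLNR and LOC101799801, named after their values were seen. AQP1, a water channel, scaled over all 16 libraries, read 16.3, 12.1, 14.0 and 6.33 CPM in caged hypothalamus and 6.49, 3.26, 5.3 and 4.28 CPM in caged pituitary, against 46.8, 47.2, 3.37 and 5.56 CPM in floor-water pituitary. Its high floor-water values came from libraries 1 and 2 alone.

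The difference between the contrasts was tested as an interaction of tissue and housing over 16 libraries. No gene of 17010 passed the adjusted threshold with edgeR (0.0%), and 1226 (7.21%) had an unadjusted p under 0.05. DESeq2 called 142 and limma 0. GH1 was 4.36 in caged and 8.23 in floor-water ducks, PRL 4.54 and 7.82, LHX3 3.99 and 8.24, and SST -5.62 and -1.56. For the hormones the fold with hypothalamus library 4 left out lay between those values, at 5.88 for GH1 and 5.87 for PRL. TSHB (2.04 and 2.56), MBP (-6.18 and -5.9), SYT1 (-4.51 and -4.3) and RPS29 (2.11 and 2.12) differed less between housings.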

How the data were processed

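RNA was sequenced from 4 libraries each of pituitary and hypothalamus of caged ducks, and 4 each of floor-water ducks. The authors deposited whole-number counts per gene and FPKM, per the file headers, with unexpressed genes listed at 0.0001 FPKM. Tools listed in the submitters' processing notes were HISAT2, StringTie 1.3.4d, cutadapt and DESeq2. Build, strand use and settings are not given in the sources used here, so no positions are printed, and overlapping, antisense and near-identical genes are uncertain. Of 24263 gene identifiers, 17816 (73.4%) matched a reference table of assembly IASCAAS_PekinDuck_T2T, used for names only, and 480 locus-number genes gained a symbol. Libraries of a group were not duplicates (chi-square per degree of freedom 90 to 333).

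The 8 caged libraries were fitted with edgeR 4.0.16 (R 4.3.3; TMM, filterByExpr, quasi-likelihood F-test, Benjamini-Hochberg adjustment, threshold 0.05) on the deposited counts. Each standard error is the absolute fold change over the square root of its F statistic. Deep libraries make counting error small beside the spread between libraries, except in the lowest genes. Tissue by housing was tested over 16 libraries. Also run were limma 3.58.1 on log2(FPKM + 1) or log2(FPKM + 0.1) with a mean FPKM filter of 0.5, DESeq2 1.42.0, other scalings and filters, the newer edgeR fit, the title number as a block, all 16 libraries, and libraries left out.

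Members and gene lists were chosen with earlier results of these data known. Genes were named by rule: the 15 largest called differences each way (symbol, mean of at least 10 FPKM in the higher tissue, no overlap), every measured hormone, lineage factor, receptor and neuropeptide precursor listed, up to 2 called members each way of each other list (mean of at least 5 FPKM), MBP, and the 5 called genes each way that lost their call most often. Locus-number genes named by their description, and ESR1, ESR2, CYP19A1, FKBP5, EYA3, FOS, DUSP1, MKI67, NKX2-1, PCSK1, SLC34A2 and the 5 genes called in opposite directions, were named after their values were seen. A few genes that the rule names are not reported here.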

Additional observations from a re-analysis of the deposited data

Results flagged for a closer look

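In each caged group, a library was picked out where its gap to the nearest of the other 3, as a share of the group's range, passed Dixon's critical value. In all, 348 sets of 4 values were examined. The critical value is set to pick out about 1 in 20 sets of independent, normally distributed values. CPM near 0 is skewed, and a set with 3 values of 0 and 1 above 0 is always picked out. The sets also share the same libraries, so the rate of 1 in 20 does not hold here. No cause was tested.

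Most of those found were high values in pituitary library 2, 34 genes in all, beside its share of hypothalamus-restricted transcripts of 4.18%. The myelin and glial genes among them were MBP (329 CPM), GFAP (55.4 CPM), OMG (3.2 CPM) and HAPLN2 (2.43 CPM), and the perineuronal link protein HAPLN4 (3.69 CPM) was also among the 34. The neuronal genes were GAP43 (69.6 CPM), GRIN1 (42.6 CPM), PVALB (13.8 CPM), SYT2 (3.64 CPM), GRM2 (3.13 CPM), GRM8 (2.03 CPM), DDC (3.9 CPM) and TH (0.94 CPM). The peptide genes were CCK (46.7 CPM), NPVF (22.5 CPM), NPY (8.99 CPM), SST (8.97 CPM), GAL (8.61 CPM), TAC1 (6.32 CPM), ADCYAP1 (6.07 CPM), GHRH (5.62 CPM), UCN3 (4.34 CPM), PNOC (1.76 CPM) and CRHBP (1.49 CPM), with the neurophysin genes LOC113843450 (18.0 CPM), LOC101790900 (16.6 CPM) and LOC113843510 (10.4 CPM). The rest were ADCYAP1R1 (5.96 CPM), MC4R (0.872 CPM), LHX9 (4.92 CPM), IRX1 (0.513 CPM), APOH (10.6 CPM), SLC13A4 (2.41 CPM) and TBX19 (125 CPM), of which TBX19 is a pituitary gene. The same library was low for KRT8 (72.1 CPM).

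Hypothalamus library 4 was high for LHX3 (277 CPM), GHRHR (49.3 CPM), AGR2 (2.71 CPM) and ESPN (6.01 CPM). It was also high for PLVAP (20.5 CPM), HSD11B1 (4.78 CPM) and CRELD2 (106 CPM). All of these were called higher in pituitary, though CRELD2 also read 51.1 to 57.7 CPM in the other hypothalamus libraries. The same library was high for PVALB (552 CPM), which was called lower in pituitary. Hypothalamus library 3 was high for SLC1A2 (872 CPM), AGRP (12.7 CPM) and UCN3 (99.8 CPM) and low for GATA3 (1.75 CPM). Hypothalamus library 2 was high for TTR (12606 CPM), GRP (118 CPM), SSTR4 (21.6 CPM) and LHX4 (4.13 CPM). Pituitary library 4 was high for RPS29 (909 CPM), SREBF2 (320 CPM), ABTB1 (179 CPM) and NDUFS7 (74.6 CPM).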

How the results depend on the processing

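Total calls ranged from 7329 to 8401 with a library left out and from 5748 to 9441 under the other alternatives. Higher calls fell to 2709 with library totals, 2810 and 2794 with limma (pseudocount 1 and 0.1) and 2593 with a log2 fold change of at least 1. The title number as a block gave 4094 higher, 4106 lower and 0 interaction calls. Under it 4 rather than 6 hormones were called, with CGA at 5.35 (adjusted p = 0.0512, edgeR) and FSHB at 4.03 (0.131), and GAL stood at -5.34 (0.0506). Same-numbered tissues correlated at 0.094 to 0.191 and differently numbered ones at -0.183 to 0.104. Since 1 same-numbered pair stood under 0.1, the limit used, the numbers were not taken to pair the libraries. However, 4 of 4 hypothalamus and 3 of 4 pituitary libraries correlated best with their own number, so whether the numbers pair the libraries is not settled. Interaction calls numbered 142 with DESeq2 and 0 to 4 with a library left out, the most without floor-water pituitary library 3. With genes at least 100 times higher, the brain shares of pituitary libraries 2 and 3 were 6.49% and 2.34%, over 2 genes. Of 3954 gene values compared, 3529 kept direction and side of the threshold, 344 lost and 35 gained a call, and 46 turned sign. None of the turned values was itself called, but RAB28, MMP17 and RNF139, which turned, were called higher in the main fit. The cause was not tested. GHSR turned to -0.05 (DESeq2 and median ratio), -0.29 and -0.47 (limma), -0.03 (newer edgeR fit), -0.36 (library totals), -0.01 (16 libraries), -0.16 (block) and -0.19 (without hypothalamus libraries 2 and 4). CARTPT turned to -0.13 and -0.16 (limma), -0.24 (totals) and -0.01 (without libraries 3 and 4). LHX4 turned to 0.71 (block) and 1.33 (without 2 and 4), TAC3 to -0.26 (totals), -0.64 (block) and -0.03 (without 2 and 4), and AGRP to 0.0 (block). Without hypothalamus libraries 3 and 4, AGRP was 0.02, PENK 0.23, QRFP 1.75, and the hemoglobin genes LOC101792412 and LOC101800520 -0.11 and -0.1. RAB28 (-0.02), MMP17 (-0.01) and RNF139 (-0.03) turned with totals and both limma fits, and LOC101792412 (-0.04) with totals. Leaving out a library gave ranges of -0.82 to 1.38 (LHX4), -0.65 to 0.31 (GHSR), -3.49 to 0.29 (AGRP), -0.14 to 0.51 (CARTPT) and -0.55 to 0.56 (TAC3). Genes near 1 CPM are limited by depth.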

Other observations

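Among 955 genes called higher in pituitary with a log2 fold change over 2, hypothalamus library 4 was the highest hypothalamus library for 657 (68.8%), against 34.0% of all genes tested. Among 1806 genes called lower past the same size, pituitary library 2 was the highest pituitary library for 1017 (56.3%), against 27.9% of all genes tested.

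The hemoglobin genes were abundant in both tissues. The gene described as hemoglobin subunit beta (LOC113839608) read 984, 1614, 813 and 823 CPM in hypothalamus and 1168, 904, 1330 and 2360 CPM in pituitary (0.44 ± 0.33, adjusted p = 0.281, edgeR). Hypothalamus library 2 and pituitary library 4 were the highest of their groups for it, and for the alpha-A gene LOC101792412 (0.31 ± 0.35) and the alpha-D gene LOC101800520 (0.38 ± 0.4).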
